A study of Mus musculus with 12 samples.

Results

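The genes described here are 10 genes of the disease-associated microglia programme, the TREM2-dependent activated state of microglia and its lipid handling: Trem2, Tyrobp, Apoe, Apoc2, Cd68, Gpnmb, Lgals3, Lpl, Cst7 and Itgax. They were chosen by name, as the rows of these symbols among 24340 rows of the gene table. All 10 had a row above 0 in at least 1 library, and 8 of them were above 0 in every library. RNA was sequenced from both retinas of 6 mice of the p16-3MR strain, aged 12 to 16 weeks, which all carried a transgene for Renilla luciferase, mRFP and the HSV thymidine kinase under the regulatory region of p16Ink4a. In each mouse the intraocular pressure (IOP) of one eye was raised to 85 to 90 mm Hg for 60 min and the opposite eye was left as the control. Mice 1, 2 and 5 then received ganciclovir (GCV, 25 mg/kg daily), which the viral kinase makes toxic to cells that express the transgene, and mice 3, 4 and 6 did not. The methods of the study name PBS or vehicle as the sham treatment of its control mice, and mice 3, 4 and 6 are called sham-treated here. Their labels name no sham agent. Retinas were taken on day 3, which gave 4 groups of 3 libraries: CTRL and IOP from the sham-treated mice, and CTRL-GCV and IOP-GCV from the mice given GCV. The loss of cells that carry the transgene was not measured in these libraries.

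Microglia are the resident macrophages of the retina and brain. Around dying neurons, amyloid or myelin debris they leave their resting state, and a receptor pair on their surface, the lipid-sensing receptor TREM2 and its adaptor TYROBP (DAP12), is needed for the full change. The changed cells take up debris and lipid, and their RNA is rich in lysosomal, lipid-binding and adhesion genes. Several of these genes are not restricted to microglia: infiltrating macrophages use most of them, Mueller glia make much of the retina's Apoe, and pigment cells express Gpnmb.

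Values are FPKM, the number of fragments per kilobase of transcript relative to the size of the library, which corrects for the length of each transcript. The whole retina was sequenced, so fewer cells of a type and less RNA per cell cannot be told apart. Depth was estimated from the step size of low values at 3950000 fragments in the IOP retina of mouse 6 and 6740000 to 8980000 in the other 11 libraries. Arr3, the arrestin of cone photoreceptors, lay at 28.5 to 151 FPKM over all 12 libraries. Lens crystallin RNA and pigment-cell RNA differed widely between libraries: the summed level of 10 lens genes was 69.3 to 129 FPKM in CTRL, 292 to 5244 in IOP, 154 to 7875 in CTRL-GCV and 3521 to 7387 in IOP-GCV retinas. No member is a lens gene, and the part of lens tissue in the values of the members was not tested.

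In the mouse genome (build GRCm38, RefSeq gene bounds) Trem2 lies at chr17:48346401-48352276, Tyrobp at chr7:30413782-30417582, Cd68 at chr11:69664213-69666170, Gpnmb at chr6:49036518-49058182, Lgals3 at chr14:47373860-47386167, Lpl at chr8:68880555-68906932, Cst7 at chr2:150570415-150578944 and Itgax at chr7:128129526-128150657. Apoe (chr7:19696244-19701310) and Apoc2 (chr7:19671579-19677941) belong to one apolipoprotein cluster on the minus strand, with Apoc1 and Apoc4 between them. Libraries were made from poly(A) RNA and fragments were counted over exons. No annotated gene other than 1 read-through transcript, which joins Apoc2 and Apoc4 and has no row of its own, overlaps an exon of a member.

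RefSeq promoter windows (GRCm38.p6, 250 bases before to 50 after the transcript start) were given for 8 of the 10 members, as 10 windows. Since 9 members rose together, these windows were searched on both strands for the letters GAGGAAGT (the PU.1 type), TCACGTG and TCATGTG (the MITF and TFEB type), TGANTCA (the AP-1 type) and TTCCNGGAA (the STAT type). TGANTCA, which reads alike on both strands but for its middle base, was found in the windows of 5 of the 8 members, against 7.81% of all 32851 windows. The units differ, since the first counts genes, some with more than 1 window, and the second counts windows. It was also in 1 of 17 genes with a window among further disease-associated microglia genes, in 0 of 7 homeostatic microglia genes and in 0 of 8 pan-leukocyte genes. None of the other letters was in a member's window, while 3.2% of all windows held GAGGAAGT, 3.77% TCACGTG, 3.77% TCATGTG and 1.15% TTCCNGGAA. The 5 windows that hold TGANTCA are shown from 150 bases before to 15 bases after the start, in the direction of transcription, with the match in capitals. They lie at chr17:48346251-48346415 (plus strand, Trem2), chr11:69666156-69666320 (minus strand, Cd68), chr7:128129400-128129564 (plus strand, Itgax), chr2:150570265-150570429 (plus strand, Cst7) and chr6:49036368-49036532 (plus strand, Gpnmb).
Trem2: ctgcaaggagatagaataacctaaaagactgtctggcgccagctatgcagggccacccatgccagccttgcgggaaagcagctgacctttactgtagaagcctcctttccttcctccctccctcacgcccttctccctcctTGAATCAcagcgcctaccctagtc
Cd68: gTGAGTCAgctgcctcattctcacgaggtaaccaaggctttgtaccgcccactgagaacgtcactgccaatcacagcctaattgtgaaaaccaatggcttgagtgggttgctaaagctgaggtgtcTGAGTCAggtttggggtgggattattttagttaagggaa
Itgax: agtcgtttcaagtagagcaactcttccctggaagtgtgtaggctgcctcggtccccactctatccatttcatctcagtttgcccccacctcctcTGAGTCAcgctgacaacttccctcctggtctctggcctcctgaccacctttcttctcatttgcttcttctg
Cst7: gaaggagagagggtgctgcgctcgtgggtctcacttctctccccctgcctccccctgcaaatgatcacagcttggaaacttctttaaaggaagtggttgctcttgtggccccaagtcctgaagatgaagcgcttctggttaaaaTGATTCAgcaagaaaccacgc
Gpnmb: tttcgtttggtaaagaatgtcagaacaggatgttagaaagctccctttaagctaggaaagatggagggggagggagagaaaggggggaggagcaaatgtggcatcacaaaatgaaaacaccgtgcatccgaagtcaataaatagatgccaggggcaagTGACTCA
Cd68 held the letters at 2 places, with first bases at -149 and -24 from the start, Itgax at -56, Trem2 at -9, Cst7 at -6 across the start, and Gpnmb at 9 bases into the transcript. In Cd68, Itgax and Gpnmb the match was TGAGTCA or its reverse TGACTCA, a form found in 5.2% of all windows. A match of letters is a description and does not show that a factor binds there.

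On day 3 after the pressure was raised, 9 of the 10 members were higher in the IOP eye than in the opposite eye of all 6 mice, with Lpl the exception. Of all 18509 genes above 0, 10.7% were higher in the IOP eye of all 6 mice. In the comparison averaged over mice with and without GCV these 9 members rose at an adjusted p under 0.05 (limma on log2(FPKM + 1), Benjamini-Hochberg over all genes), where 6.76% of all genes rose. Of the members, 7 rose in IOP against CTRL (1.42% of all genes rose) and 6 in IOP-GCV against CTRL-GCV (1.65% of all genes rose). With the 2 eyes of a mouse paired, by the mouse as replicate block, 2 members were called in each arm, Cd68 and Tyrobp, where 0.389% of all genes rose without GCV and 0.751% with GCV, and 8 in the average, all but Apoe and Lpl, where 4.83% of all genes rose. The median log2 fold change of the members was 2.64 without GCV and 2.67 with GCV, while the median over all genes was 0 and 0.004. The lowest of the 6 IOP retinas was above the highest of the 6 control retinas for 7 members: Trem2, Tyrobp, Apoc2, Cd68, Lgals3, Cst7 and Itgax. This held for 5.47% of all genes. Within the sham-treated mice all 3 IOP retinas were above all 3 CTRL retinas for these 7 members, as for 11.7% of all genes, and within the mice given GCV this held for 9 members, as for 14.5% of all genes.

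**Figure D1:**
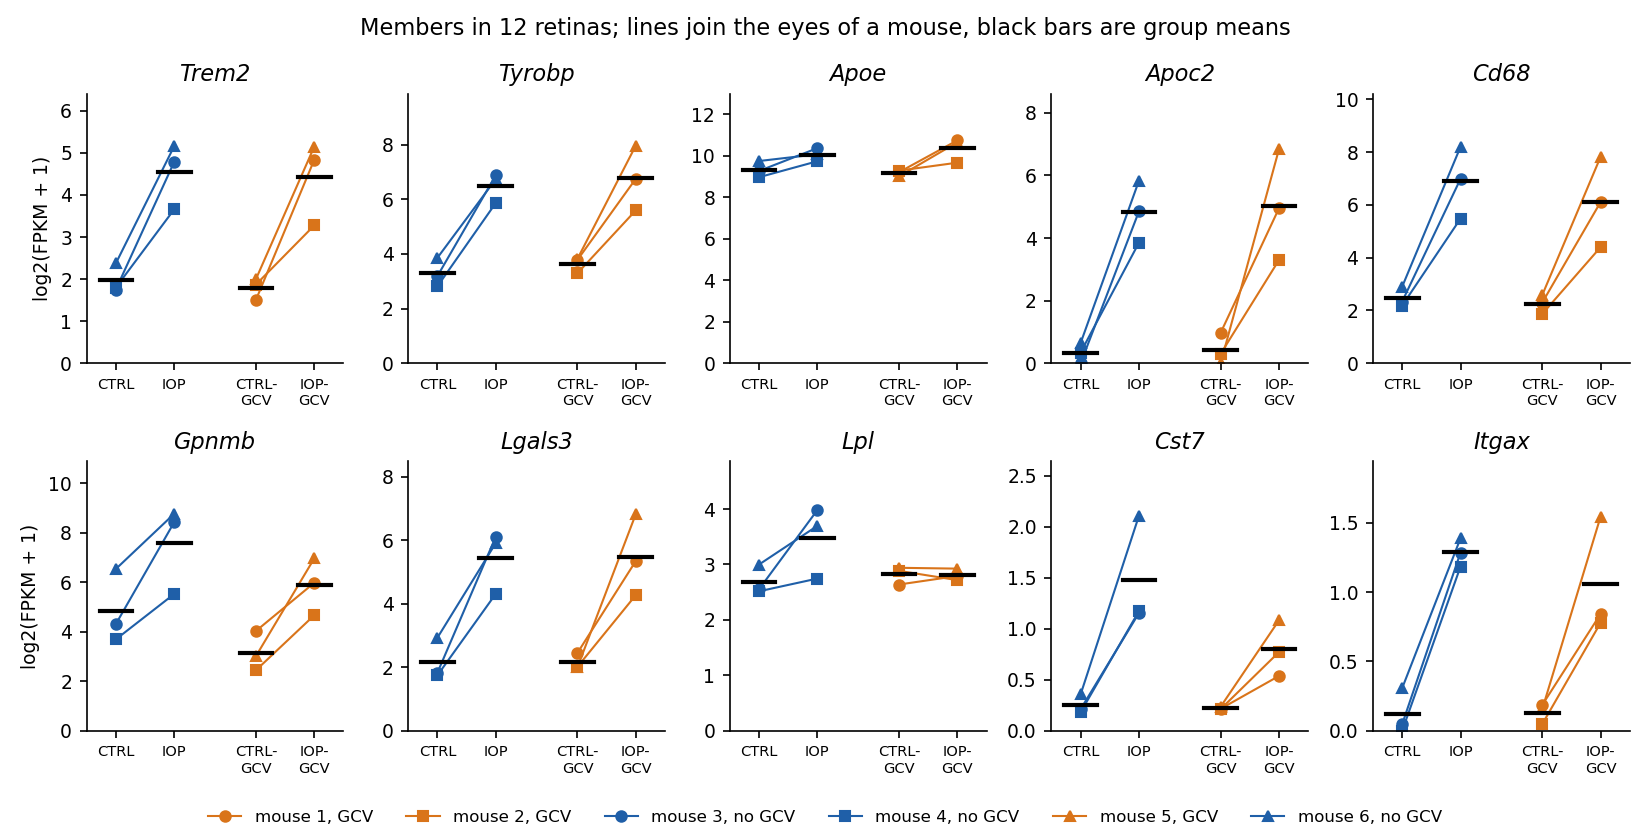
Level of each of the 10 members, as log2(FPKM + 1) on the vertical axis, in the 12 retinas by group; lines join the 2 eyes of a mouse and black bars are group means (n = 3). Lines rise in every mouse for 9 members, and for Lpl the 3 lines of mice given GCV lie flat between 5.23 and 6.67 FPKM.

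The receptor and its adaptor rose together. Trem2, the receptor for lipids and lipoproteins, was at 2.37, 2.48 and 4.18 FPKM in the CTRL retinas of mice 3, 4 and 6 and at 26.6, 11.6 and 34.8 FPKM in their IOP retinas. With GCV it was at 1.84, 2.65 and 2.99 FPKM in the CTRL-GCV retinas of mice 1, 2 and 5 and at 27.6, 8.69 and 34.5 FPKM in the IOP-GCV retinas. The groups did not overlap, and the IOP retinas of mice 4 and 2 were the lowest of their groups. Fitted log2 fold changes were 2.56 ± 0.49 (SE, adjusted p = 0.0328) without GCV, 2.63 ± 0.49 (adjusted p = 0.0268) with GCV and 2.60 ± 0.35 (adjusted p = 0.00187) averaged over both. With the mouse as replicate block only the average was called (adjusted p = 0.0723 without GCV, 0.0573 with GCV and 0.00954 averaged).

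Tyrobp, the adaptor that carries the signal of TREM2 into the cell, was at 8.12, 6.03 and 13.5 FPKM in CTRL and at 116, 57.2 and 105 FPKM in IOP retinas (mice 3, 4 and 6). In CTRL-GCV it was at 12.8, 8.81 and 13.1 FPKM, and in IOP-GCV at 106, 47.3 and 249 FPKM (mice 1, 2 and 5). The IOP-GCV retina of mouse 5 held the highest Tyrobp level of all 12 libraries. The log2 fold change was 3.20 ± 0.52 without GCV (adjusted p = 0.0181), 3.14 ± 0.52 with GCV (adjusted p = 0.0157) and 3.17 ± 0.37 averaged (adjusted p = 9.55e-04). The change of Tyrobp exceeded that of Trem2 in 5 of 6 mice on the log2(FPKM + 1) scale, and mouse 1 was the exception. Per kilobase, Trem2 RNA was present at 0.139 to 0.330 of the Tyrobp level in the IOP eyes and at 0.144 to 0.411 in the control eyes.

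The apolipoproteins started from opposite ends of the range. Apoe, the main apolipoprotein of the nervous system and a ligand of TREM2, was the most abundant member in every library, at 613, 498 and 856 FPKM in CTRL and 1316, 849 and 1073 FPKM in IOP retinas. It was at 589, 621 and 513 FPKM in CTRL-GCV and at 1710, 810 and 1602 FPKM in IOP-GCV retinas. The IOP retina of mouse 4 (849 FPKM) lay just under the CTRL retina of mouse 6 (856 FPKM), so the sham-treated groups overlapped, whereas the groups given GCV did not. Apoe was 1.25 to 3.12 times as high in the IOP eye as in the other eye of the same mouse. Neither treatment arm passed the test alone (log2 fold change 0.73 ± 0.33, adjusted p = 0.266 without GCV, and 1.19 ± 0.33, adjusted p = 0.105 with GCV), and the average did (0.96 ± 0.23, adjusted p = 0.0303). That call was lost with the 2 eyes of a mouse treated as a replicate block (adjusted p = 0.0580) and in 8 of 12 fits with a library omitted: CTRL of mouse 3 or 4, IOP of mouse 3, CTRL-GCV of mouse 1, 2 or 5, and IOP-GCV of mouse 1 or 5 (highest adjusted p = 0.0862). Apoe made up 86.8% to 95.6% of the summed FPKM of the 10 members in control retinas and 51.8% to 85.8% in IOP retinas.

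Apoc2, the small apolipoprotein that activates lipoprotein lipase, was close to absent from control retinas. It was at 0, 0.269 and 0.563 FPKM in CTRL and at 0.962, 0.232 and 0 FPKM in CTRL-GCV retinas, each an estimated 4.1 fragments or fewer. In the IOP retinas it was at 27.9, 13.4 and 55.9 FPKM, and in the IOP-GCV retinas at 29.9, 8.84 and 114 FPKM, an estimated 33.5 to 546 fragments. Every IOP retina was above every control retina, and mouse 5 was the highest. Averaged over both treatments the log2 fold change was 4.56 ± 0.54 (adjusted p = 0.00106), with 4.52 ± 0.77 without GCV (adjusted p = 0.0225) and 4.60 ± 0.77 with GCV (adjusted p = 0.0157). With the mouse as replicate block the calls in the arms were lost (adjusted p = 0.0695 without and 0.0569 with GCV) and the average was called (adjusted p = 0.00930). These log2 values rest on the pseudocount of 1 FPKM, since the control levels were under it, and the average was 6.57 with a pseudocount of 0.1 FPKM. The change of Apoc2 exceeded that of Apoe in 6 of 6 mice. Its neighbours in the cluster differed from it: Apoc1 was at 2.19 to 6.47 FPKM in control and 4.48 to 17.8 FPKM in IOP retinas (averaged log2 fold change 1.12 ± 0.28, adjusted p = 0.0328, a call that 8 of the 12 fits without 1 library lost), and Apoc4 stayed at or under 0.935 FPKM in all libraries (-0.08 ± 0.18, adjusted p = 0.809). The values of Apoc1 and Apoc4 rest on at most 51.0 and 3.1 estimated fragments.

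Cd68 had the second largest fold change of the members after Apoc2. Cd68, a heavily glycosylated protein of macrophage lysosomes, was at 4.06, 3.55 and 6.47 FPKM in CTRL and at 126, 43.6 and 293 FPKM in IOP retinas. With GCV it went from 3.91, 2.65 and 4.99 FPKM in CTRL-GCV to 67.8, 20.1 and 225 FPKM in IOP-GCV retinas. Within a mouse the IOP eye held 7.59 to 45.3 times the Cd68 level of the control eye, lowest in mouse 2 and highest in mice 5 and 6. Its log2 fold change was 4.41 ± 0.81 without GCV (adjusted p = 0.0287), 3.86 ± 0.81 with GCV (adjusted p = 0.0437) and 4.14 ± 0.57 averaged (adjusted p = 0.00231). Cd68 and Tyrobp were the members whose call in each treatment arm was kept with the mouse as replicate block (Cd68 at adjusted p = 0.0452 and 0.0480, Tyrobp at 0.0327 and 0.0267). When the CTRL-GCV and IOP-GCV libraries were fitted alone, neither was called with GCV (adjusted p = 0.0797 for Cd68 and 0.0698 for Tyrobp), and Cd68 was not called there without the trend in the prior variance (adjusted p = 0.0520).

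Cst7, which encodes cystatin F, an inhibitor of lysosomal cathepsins, was with Itgax one of the least abundant members. Its control levels of 0.134 to 0.280 FPKM rest on an estimated 1 to 2 fragments per library. In the IOP retinas it was at 1.22, 1.25 and 3.31 FPKM, on an estimated 7.9, 8.8 and 10.7 fragments. In the IOP-GCV retinas it was at 0.451, 0.707 and 1.12 FPKM, on an estimated 3.0, 3.9 and 7.9 fragments. It rose without GCV (1.23 ± 0.23, adjusted p = 0.0309) and averaged over both (0.90 ± 0.16, adjusted p = 0.00917), and with GCV the value was 0.58 ± 0.23 (adjusted p = 0.211). The call without GCV was lost under the replicate block (adjusted p = 0.0659), when the CTRL and IOP libraries were fitted alone (adjusted p = 0.106) and after quantile normalization (adjusted p = 0.0604). That of the average was kept under the block (adjusted p = 0.0207) and after quantile normalization (adjusted p = 0.0212). These differences on the log2(FPKM + 1) scale understate the change of so low a gene, and with a pseudocount of 0.1 FPKM they were 2.69 without GCV, 1.62 with GCV and 2.15 averaged.

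Gpnmb, a transmembrane glycoprotein of phagocytes and of pigment cells, had the largest standard error of the members. It was at 18.8, 11.9 and 91.5 FPKM in CTRL and 342, 45.0 and 433 FPKM in IOP retinas, and at 15.3, 4.43 and 7.06 FPKM in CTRL-GCV and 61.8, 24.4 and 123 FPKM in IOP-GCV retinas. The CTRL retina of mouse 6 was above the IOP retina of mouse 4, so the sham-treated groups overlapped. The IOP eye held 3.78 to 18.2 times the level of the other eye, with mice 3 and 5 far above the other 4. Its log2 fold change was 2.73 ± 0.98 (adjusted p = 0.204) without GCV, 2.71 ± 0.98 (adjusted p = 0.177) with GCV and 2.72 ± 0.69 (adjusted p = 0.0345) averaged. With the mouse as replicate block the averaged call was kept (adjusted p = 0.0168). It was lost in 9 of 12 fits with a library omitted (highest adjusted p = 0.0946), all but those without CTRL of mouse 6, IOP of mouse 4 or IOP-GCV of mouse 2.

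The 10 markers of pigment epithelium and melanocytes, cells that also express Gpnmb, differed widely between libraries. Their summed level went from 143 FPKM in the control to 476 FPKM in the IOP eye of mouse 3, from 87.7 to 63.8 in mouse 4, from 461 to 298 in mouse 6, from 311 to 129 in mouse 1, from 204 to 93.8 in mouse 2 and from 26.3 to 67.4 in mouse 5. The sum was thus higher in the IOP eye of mice 3 and 5 and lower in that of the other 4, while Gpnmb was higher in the IOP eye of all 6. No gene of the list was called in the averaged comparison. The part of the list made up of Dct, Mlana, Pmel, Tyrp1 and Tyr, genes of melanin synthesis and melanosomes, was singled out after its values had been seen and differed in direction from the whole list in 2 mice. Its sum was higher in the IOP eye of mice 3 (53.4 to 343), 1 (54.7 to 103), 2 (23.5 to 51.9) and 5 (12.8 to 16.0), and lower in that of mice 4 (26.2 to 15.7) and 6 (332 to 237). Gpnmb was 18.2, 3.78 and 4.73 times as high in the IOP eye of mice 3, 4 and 6. In mice 1, 2 and 5 it was 4.04, 5.50 and 17.5 times as high. Outside the planned comparisons, Gpnmb was correlated with other genes over the 12 libraries as log2(FPKM + 1). It gave r = 0.724 with Dct, 0.635 with Mlana and 0.818 with the leukocyte gene Fcer1g. With Dct the other members lay at r = 0.273 to 0.444, but for Lpl at 0.663.

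**Figure D2:**
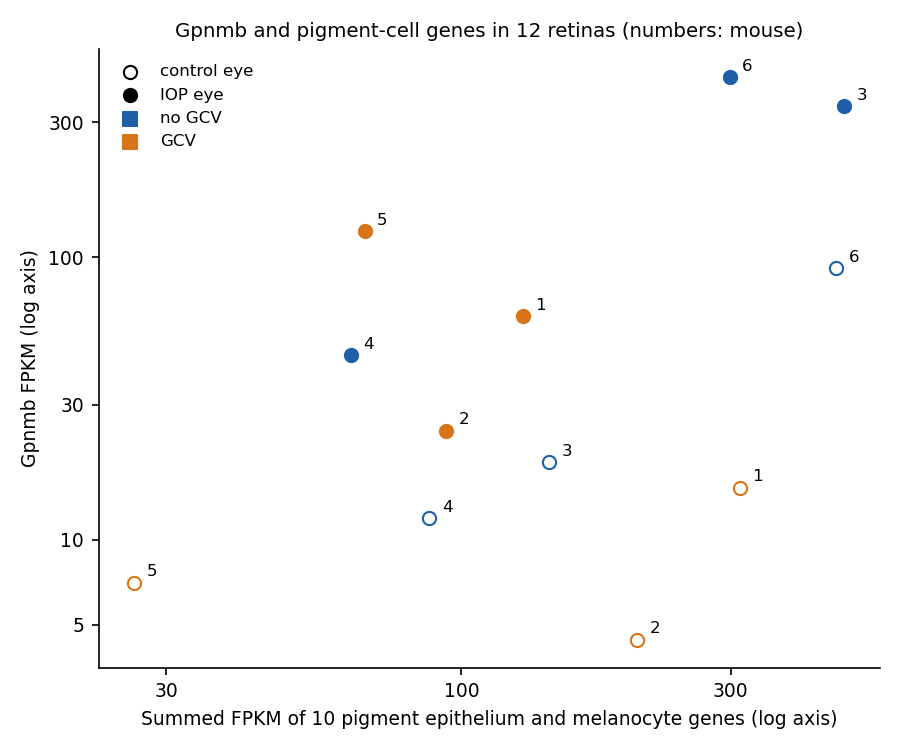
Gpnmb FPKM (vertical, log axis) against the summed FPKM of 10 pigment epithelium and melanocyte genes (horizontal, log axis) in the 12 retinas; open circles are control eyes, filled circles IOP eyes, blue without and orange with GCV, and numbers are mice. Gpnmb lies higher in the IOP eye of every mouse, with the pigment sum higher in that eye in mice 3 and 5 and lower in mice 1, 2, 4 and 6.

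Among the adhesion and cell-surface genes, Lgals3, the galactose-binding lectin galectin-3, was at 2.55, 2.35 and 6.61 FPKM in CTRL and 68.0, 18.8 and 59.1 FPKM in IOP retinas. With GCV it was at 4.47, 3.04 and 3.00 FPKM in CTRL-GCV and 39.6, 18.3 and 112 FPKM in IOP-GCV retinas, so neither pair of groups overlapped. Lgals3 had a log2 fold change of 3.27 ± 0.64 without GCV (adjusted p = 0.0354), 3.32 ± 0.64 with GCV (adjusted p = 0.0305) and 3.30 ± 0.45 averaged (adjusted p = 0.00216). Under the replicate block it was called in the average (adjusted p = 0.00954) and in neither arm (adjusted p = 0.0722 without and 0.0579 with GCV). Itgax, the integrin CD11c, was at 0 to 0.237 FPKM in the 6 control retinas, with an estimated 0 to 8 fragments each. It was at 1.44, 1.27 and 1.62 FPKM in IOP and 0.793, 0.715 and 1.92 FPKM in IOP-GCV retinas, on an estimated 18.8 to 64.2 fragments. The IOP retinas lay close together, at a mean of 1.44 ± 0.173 FPKM (SD, n = 3). Its log2 fold change was 1.17 ± 0.18 without GCV (adjusted p = 0.0154), 0.93 ± 0.18 with GCV (adjusted p = 0.0322) and 1.05 ± 0.13 averaged (adjusted p = 0.00126). These sizes are set largely by the pseudocount, since the control levels were far under 1 FPKM: with a pseudocount of 0.1 FPKM they were 3.22, 2.59 and 2.90. Here too the replicate block left the average called (adjusted p = 0.00803) and neither arm (adjusted p = 0.0514 without and 0.0663 with GCV).

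Lpl, lipoprotein lipase, which frees fatty acids from lipoproteins with Apoc2 as its cofactor, was the member that did not pass any of these tests. It was at 4.87, 4.72 and 6.99 FPKM in CTRL and 14.8, 5.71 and 12.0 FPKM in IOP retinas, higher in the IOP eye of 3 of 3 sham-treated mice. In CTRL-GCV it was at 5.23, 6.38 and 6.67 FPKM and in IOP-GCV at 5.93, 5.58 and 6.59 FPKM, higher in the IOP eye of 1 of 3 mice. The log2 fold change was 0.79 ± 0.28 (adjusted p = 0.201) without GCV, -0.01 ± 0.28 (adjusted p = 1.0) with GCV and 0.39 ± 0.20 (adjusted p = 0.219) averaged. The difference in Lpl between the eyes was largest in mice 3 and 6. The summed pigment-cell markers rose in the IOP eye of mouse 3 (143 to 476 FPKM). They fell in that of mouse 6 (461 to 298 FPKM) and of mouse 4 (87.7 to 63.8 FPKM). The part of pigment cells in the values of Gpnmb and Lpl was not tested. Without the IOP retina of mouse 4, Lpl was called in IOP against CTRL (1.15, adjusted p = 0.0128) and in the average (adjusted p = 0.0105).

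**Figure D3:**
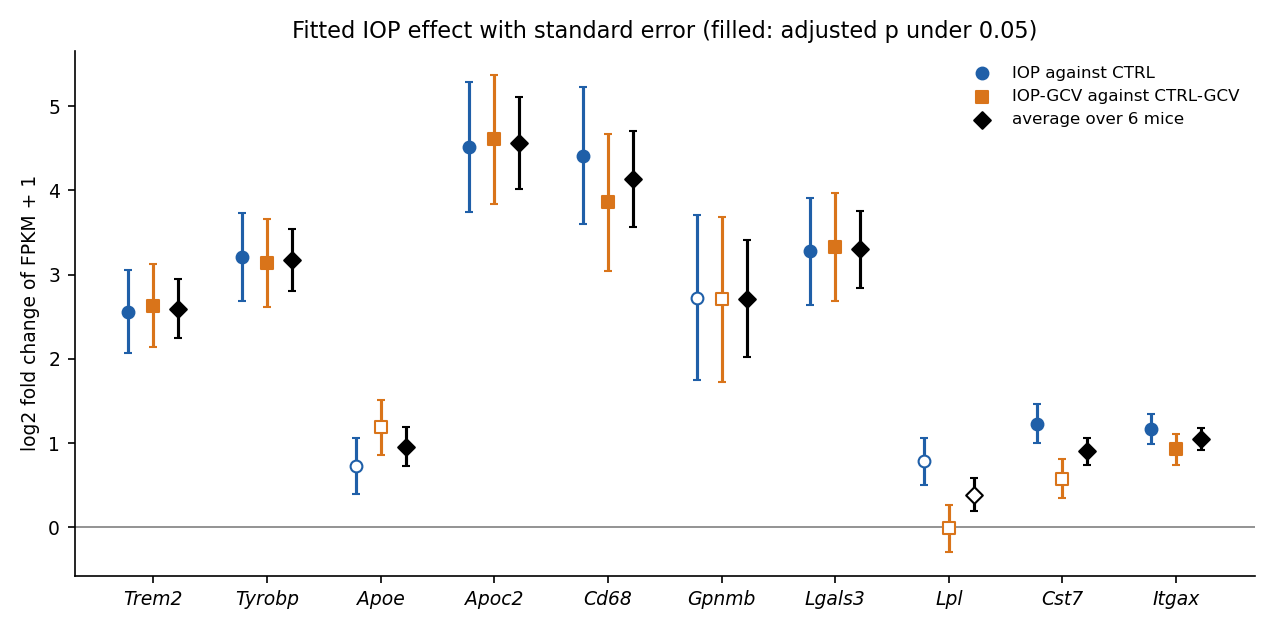
Fitted log2 fold change of FPKM + 1 (vertical) with its standard error for the 10 members, without GCV (blue circles), with GCV (orange squares) and averaged (black diamonds); filled symbols have an adjusted p under 0.05. Apoc2 and Cd68 lie highest at 4.56 and 4.14 averaged, and Lpl is the member with no filled symbol.

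Counts in a single treatment arm rested on single libraries. In IOP against CTRL no member was called without the CTRL retina of mouse 3, the CTRL retina of mouse 4 or the IOP retina of mouse 3, where 0.108%, 0.13% and 0.378% of all genes rose. Without the CTRL or the IOP retina of mouse 6, 2 members were called (0.497% and 0.967% of all genes), and without the IOP retina of mouse 4, 9 were called (5.07% of all genes). In IOP-GCV against CTRL-GCV no member was called without any one of the CTRL-GCV retinas (0.33% to 0.438% of all genes). Without the IOP-GCV retina of mouse 1 or of mouse 5, 3 were called, Apoc2, Itgax and Tyrobp (1.31% and 1.06% of all genes), and the loss of mouse 2 from IOP-GCV gave 7 (3.57% of all genes). The share of all genes called thus moved with the count of members. Fitted on its own 6 libraries, IOP-GCV against CTRL-GCV had no member called (adjusted p of the 6 from 0.0698 to 0.0872), where 0.479% of all genes rose, and IOP against CTRL had 6, all but Cst7 of the 7 (1.67% of all genes). With array weights, which count libraries far from their group less, the 7 members called without GCV lost Trem2 (adjusted p = 0.0573, with 0.929% of all genes called) and the 6 called with GCV gained Apoe (adjusted p = 0.0134, with 6.49% of all genes called). In the average 7 members (Trem2, Tyrobp, Apoc2, Cd68, Lgals3, Cst7 and Itgax) passed whichever of the 12 libraries was omitted (3.31% to 10.8% of all genes). Without both eyes of mouse 6, a step added after the data were seen, these 7 members remained called in the average (3.87% of all genes) and none was called in IOP against CTRL (0.33% of all genes).

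The size of the change differed between mice. Among the sham-treated mice, mouse 4 had the lowest level in the IOP eye for 9 of the 10 members, and among the mice given GCV mouse 2 had the lowest for 9. Mouse 5 had the highest level of its group for 9 members. The median log2 change of the members between the eyes was 3.36 in mouse 3, 1.85 in mouse 4, 2.51 in mouse 6, 2.42 in mouse 1, 1.82 in mouse 2 and 3.55 in mouse 5, while the median over all genes was 0 in each mouse. These medians spanned 1.85 to 3.36 without GCV and 1.82 to 3.55 with GCV.

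Whether GCV altered the response was tested directly. No member differed in its response to IOP between mice with and without GCV (interaction in limma, lowest adjusted p of the members 0.997), where 0.0% of all genes were called and 358 genes had an unadjusted p under 0.05. None of those 358 was a member. The interaction estimates ran from -0.80 ± 0.40 for Lpl and -0.65 ± 0.33 for Cst7 to 0.45 ± 0.47 for Apoe on the log2 scale. In IOP-GCV against IOP retinas no member was called either, and 0.0% of all genes were (774 at an unadjusted p under 0.05). Cst7 (-0.68 ± 0.23, unadjusted p = 0.0143) and Lpl (-0.66 ± 0.28, unadjusted p = 0.0383) were the members under 0.05 before adjustment, both with an adjusted p of 0.819. Gpnmb was on average 273 FPKM in IOP and 69.8 FPKM in IOP-GCV retinas (-1.70 ± 0.98, adjusted p = 0.819), and it differed by about as much between the control eyes, at 40.7 ± 44.1 FPKM (SD, n = 3) in CTRL and 8.93 ± 5.67 FPKM in CTRL-GCV (-1.68 ± 0.98, adjusted p = 1.0). In CTRL-GCV against CTRL no member and 0.0% of all genes were called, with 295 genes and no member at an unadjusted p under 0.05. The standard error of the interaction was 0.256 for Itgax, the smallest, and 1.39 for Gpnmb, the largest, so that a difference between treatments of that size would not stand out from the spread between mice.

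The programme beyond these 10 genes was followed with further lists, which overlap in Lyz2 and Csf1r and were chosen with earlier results of these data known. Of 21 other disease-associated microglia genes with a row, 16 rose in the averaged comparison and none fell (5.44% of all genes fell there), with a median log2 fold change of 1.21. The MHC class I gene H2-D1 went from 28.2 to 36.4 FPKM in the 6 control retinas to 130 to 433 FPKM in the 6 IOP retinas (log2 fold change 2.68, adjusted p = 3.92e-04). The leukocyte surface peptide Cd52 (3.95, adjusted p = 6.33e-04) and the chemokine Ccl6 (3.24, adjusted p = 8.33e-04) rose as well. Fth1, the ferritin heavy chain and the most abundant gene of the list, lay at 1358 to 1718 FPKM in control and 1481 to 4830 FPKM in IOP retinas (0.54, adjusted p = 0.288).

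Of 20 genes of TREM2 and TYROBP signalling, 9 rose in the averaged comparison and none fell (median 0.60). These included Spi1, the myeloid transcription factor PU.1 (2.58, adjusted p = 0.00128), the phosphatases Ptpn6 (2.48, adjusted p = 0.00704) and Inpp5d (1.22, adjusted p = 0.0107), and Syk, the kinase that binds phosphorylated TYROBP (1.56, adjusted p = 0.0343), which was picked after its value was seen and lost its call in 8 of the 12 fits without 1 library. The sheddase Adam10, the most abundant gene of the list, was at 0.18 ± 0.13 (adjusted p = 0.406). The count was 5 to 12 when single libraries were left out, and 5 without both eyes of mouse 6. Of 22 genes of lipid handling, 6 rose and 1 fell (median 0.46), and none fell with the replicate block. The lysosomal cholesterol carrier Npc2 (1.05, adjusted p = 0.00883), the lipid droplet protein Plin2 (2.10, adjusted p = 0.0128) and the scavenger receptor Msr1 (2.05, adjusted p = 0.0137) rose, and Scarb1, the most abundant, was at 0.09 ± 0.10 (adjusted p = 0.589). The count of risen lipid genes was 3 to 9 when single libraries were left out, and 3 without both eyes of mouse 6.

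Markers of resting microglia did not fall as a group. Of 12 homeostatic microglia genes, 7 rose in the averaged comparison, 1 fell and the median was 0.66. Fcrls (1.97, adjusted p = 0.00106) and Selplg (1.26, adjusted p = 0.00918) rose. Among genes picked after their values were seen, Siglech fell by 0.56 (adjusted p = 0.0145), from 0.848 to 1.10 FPKM in control retinas to 0 to 0.614 FPKM in IOP retinas, while P2ry12, a purine receptor of resting microglia, was at 1.61 to 2.90 FPKM in control and 2.20 to 3.16 FPKM in IOP retinas (0.28 ± 0.14, adjusted p = 0.196). The count of risen genes was 4 to 7 when single libraries were left out, 5 with the replicate block and 4 without both eyes of mouse 6.

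**Figure D4:**
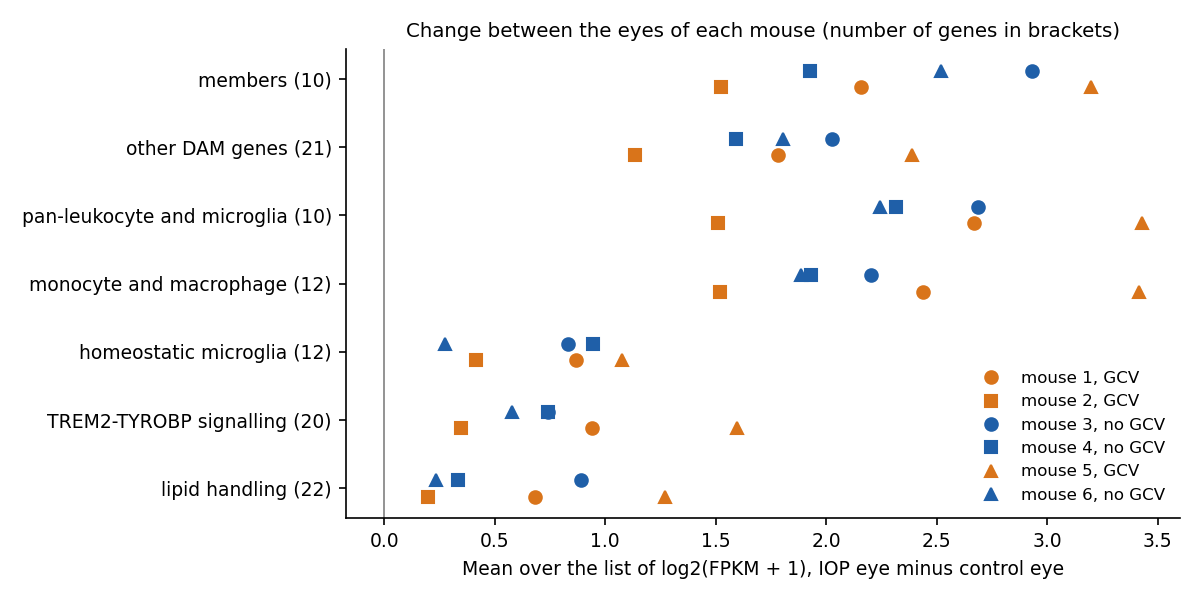
Change between the eyes of each mouse (horizontal), as the mean over each list of log2(FPKM + 1) in the IOP eye minus the control eye; symbols are mice, blue without and orange with GCV, and brackets give the number of genes. The members lie between 1.52 (mouse 2) and 3.20 (mouse 5), and homeostatic microglia genes between 0.276 (mouse 6) and 1.08 (mouse 5).

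Markers of leukocytes in general and of infiltrating cells moved with the members. All 10 pan-leukocyte and microglia genes rose in the averaged comparison (median 2.54). The complement genes C1qa (2.52, adjusted p = 1.73e-04), C1qb (2.77, adjusted p = 4.17e-04) and C1qc (2.58, adjusted p = 4.17e-04) had the smallest adjusted p of the list. The summed level of the 10 genes was 49.9 to 101 FPKM in CTRL, 63.0 to 76.4 in CTRL-GCV, 326 to 656 in IOP and 284 to 1014 in IOP-GCV retinas. Of 12 monocyte and macrophage genes 8 rose (median 2.13). Those of smallest adjusted p were Plac8 (2.92, adjusted p = 3.75e-04), the chemokine receptor Ccr2 (2.39, adjusted p = 4.10e-04) and Ly6c2 (3.55, adjusted p = 8.36e-04). Lyz2, lysozyme, the most abundant, was at 5.84 to 40.2 FPKM in control and 124 to 2050 FPKM in IOP retinas. The summed level of this list was 13.3 to 52.3 FPKM in the 6 control and 169 to 2502 FPKM in the 6 IOP retinas. Ly6c2 was at 0 in 5 of the 6 control retinas and at 4.94 to 39.6 FPKM in the IOP retinas. Mouse 2 had the smallest mean change of both lists and of the members, and mouse 5 the largest. The shares of resident microglia and of infiltrating cells in the values of the members were not tested.

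Of 7 neutrophil genes above 0, 3 rose in the averaged comparison, S100a8 (3.63, adjusted p = 0.0142), Csf3r (1.73, adjusted p = 0.0157) and S100a9 (2.73, adjusted p = 0.0270). None of these was called without both eyes of mouse 6, Csf3r lost its call without the CTRL retina of mouse 4 and S100a9 in 5 of the 12 fits without 1 library. Of the 9 genes on the list, Ly6g had no row, and Mpo was at 0 in all libraries. The summed level of the list was 1.19 to 17.5 FPKM in control and 16.0 to 398 FPKM in IOP retinas. No gene of 10 markers of dendritic and T cells was called in the average, and their summed level was at most 4.42 FPKM, led by Zbtb46. Of 10 Mueller glia and astrocyte genes 2 rose, the intermediate filament genes Gfap (2.66, adjusted p = 0.00135) and Vim (1.51, adjusted p = 0.00222), and 2 fell, with Glul, glutamine synthetase, at -1.28 (adjusted p = 0.0174, not called without the CTRL retina of mouse 4). The count of fallen glial genes was 0 to 5 when single libraries were left out, 1 with the replicate block and 0 without both eyes of mouse 6. The summed level of this list, of which Clu was the most abundant gene, was 1685 to 2436 FPKM over all libraries. It joins opposite changes. Mean Glul went from 952 FPKM in the 6 control to 417 FPKM in the 6 IOP retinas, and mean Clu from 590 to 795 FPKM. The mean of Apoe went from 615 to 1227 FPKM in the same retinas. The part of Mueller glia in the values of Apoe was not tested. Of 12 retinal neuron genes 6 fell, where 5.44% of all genes fell. Smallest in adjusted p were Arr3 (-1.28, adjusted p = 0.00911), Pou4f1 (-1.27, adjusted p = 0.0345) and Thy1 (-1.39, adjusted p = 0.0366). Pou4f1 and Thy1 were called in 3 and 2 of the 12 fits without 1 library, and Arr3 in all 12. The count of fallen neuron genes was 1 to 6 in those fits, 3 with the replicate block and 0 without both eyes of mouse 6, where Arr3 was not called either. No blood gene was called. Of 10 lens genes 7 rose in the average, with the smallest adjusted p for Crygc (3.82, adjusted p = 0.0234). The count was 0 to 8 when single libraries were left out and 0 without both eyes of mouse 6.

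The genes most like the members were found by the correlation of log2(FPKM + 1) over the 12 libraries with the mean standardised level of the 10 members, among 12902 further genes that averaged 1 FPKM or more. The highest were Ctsh, a lysosomal cathepsin (r = 0.986), Lsp1, an actin-binding protein of leukocytes (r = 0.982), Wfdc17 (r = 0.980), Wwtr1, the transcriptional co-activator TAZ (r = 0.979), and Clec7a, the beta-glucan receptor dectin-1 (r = 0.976). These correlations describe 12 libraries that fall into control and IOP eyes. Mean Ctsh was 19.5 FPKM in CTRL, 75.3 in IOP, 16.0 in CTRL-GCV and 77.5 in IOP-GCV retinas, and mean Wfdc17 was 1.92, 39.3, 0.735 and 53.9 FPKM in the same groups.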

How the data were processed

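Total RNA of 12 retinas was made into stranded poly(A) libraries and sequenced as paired reads of 50 bases. Counting by the authors used HOMER on RefSeq exons, and the submitters' processing notes name TopHat2, Bowtie2, Cufflinks, Cuffdiff and mm10. The values as deposited are FPKM per gene symbol. Their unit is given in no source used here and was inferred: the low values of a gene times its length, less 170 bases, fell within 0.12 of whole multiples of one fragment for 77.0% to 80.8% of values. Fragments estimated in this way set the precision of low values, and no interval was computed from them. A test on counts had been allowed for and did not apply.

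For each of the 18509 genes above 0, log2(FPKM + 1) was fitted by limma 3.58.1 (R 4.3.3) to the means of the 4 groups with a trend in the prior variance. P-values were adjusted over all of them by Benjamini-Hochberg and called under 0.05. The code was tested on simulated data. The replicate number is the mouse, so the labels pair the 2 eyes of an animal. Deviations from the group means correlated between the eyes at -0.117 in mouse 1, 0.132 in mouse 2, 0.207 in mouse 3, 0.388 in mouse 4, 0.166 in mouse 5 and 0.100 in mouse 6. Blocked values stand beside the member calls they change. The members and the gene lists were chosen with earlier results of these data known. Named were all members, from each further list its 3 called genes of smallest adjusted p in the averaged comparison and its most abundant gene, the neighbours Apoc1 and Apoc4, and the 5 genes most correlated with the members; others are marked where named. Some results of these lists are not reported here. The fits were repeated with the mouse as block, with only the groups compared, with a pseudocount of 0.1, after a filter of 1 FPKM in 3 libraries, with no trend, median-ratio and quantile scaling, array weights and an adjusted p under 0.1, and leaving out each library or, added later, both eyes of mouse 6. Figures were drawn with matplotlib 3.10.9 in Python 3.11.15, from tables made with numpy 2.4.6 and pandas 2.3.3. Loci are from RefSeq on GRCm38, the assembly also called mm10.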

Additional observations from a re-analysis of the deposited data

How the results depend on the processing

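Member counts changed as follows. In IOP against CTRL, 7 members were called, 2 with the mouse as replicate block, 0 to 9 when single libraries were left out and 0 without both eyes of mouse 6. In IOP-GCV against CTRL-GCV, 6 were called, 2 with the mouse as replicate block, 0 when only the groups compared were fitted (0.479% of all genes rose there) and 0 to 7 when single libraries were left out. In the average, 9 were called, 8 with the replicate block, 7 without both eyes of mouse 6 and between 7 and 10 with any 1 library omitted. In the interaction no member was called with or without the replicate block. IOP-GCV against IOP and CTRL-GCV against CTRL compare different mice, so no block could be fitted there. The log2 fold change of Lpl in IOP-GCV against CTRL-GCV, -0.01, turned sign in 4 of the 6 fits without 1 library, with values from -0.10 to 0.050. No other member value given above changed direction under an alternative. Fewer libraries leave fewer residual degrees of freedom for a whole-table adjustment. Depth limits Cst7, Itgax and Apoc2 most, whose control levels rest on 8 estimated fragments or fewer per library.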
